A study of Mus musculus with 6 samples.

Results

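In the BJ1 line of mouse embryonic stem cells (ESCs), 541 of the 1252 autosomal ZFP57 peaks (43.2%, 95% interval 40.4 to 46.0%) shared no base with any peak of the other 3 deposited lists. These lists were the KAP1 peaks of BJ1 and the ZFP57 and KAP1 peaks of JB1. The 541 peaks were selected on this lack of overlap, so the absence of KAP1 and of JB1 ZFP57 is how they were chosen and not a result. They are called BJ1-alone peaks here. Of the other autosomal BJ1 ZFP57 peaks, 521 overlapped all 3 other lists, 168 overlapped KAP1 of either line without JB1 ZFP57, and 22 overlapped JB1 ZFP57 with KAP1 of a single line or of neither. The same rule with the lines exchanged held for 3718 of the 9831 autosomal JB1 ZFP57 peaks (37.8%).

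Both lines are ESCs of F1 hybrids between the mouse strains JF1 and B6 (*Mus musculus molossinus* and *Mus musculus domesticus*), grown on gelatin without feeder cells, and their labels name no treatment, transgene or deletion. JB1 came from the cross JF1 x B6 and BJ1 from the reciprocal cross B6 x JF1. Formaldehyde-fixed chromatin was precipitated with antibodies against ZFP57 or KAP1, and each line gave 1 library per antibody and 1 of input DNA. The lists hold positions on the mm9 assembly of the B6 genome, and no height, score or read count, so the depth behind a peak is unknown. As there were no replicates, peaks were described by counts and shares, with exact Clopper-Pearson 95% intervals that cover counting error only. The lists measure no expression, so the ESC label could not be checked against marker genes.

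ZFP57 is a zinc-finger protein with a KRAB domain, which recruits the co-repressor KAP1 (TRIM28). KAP1 in turn brings the histone methyltransferase SETDB1 and DNA methyltransferases. In ESCs, ZFP57 is best known for binding the methylated allele of imprinting control regions through the hexamer TGCCGC with a methylated CpG, and for keeping that allele methylated in the early embryo.

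The hexamer TGCCGC was rare in the BJ1-alone peaks. It was found on either strand in 12 of 541 (2.22%, 1.15 to 3.84%). The 13 copies in these 12 peaks are shown with 12 bases on each side, read on the strand that carries TGCCGC, which is in capitals. They are shown because they are all the copies of the ZFP57 hexamer that the 541 peaks hold. Each copy is 30 bases from mm9, named by the nearest gene, and the last pair belongs to a single peak.
Gm5257: cttgtgaatttgTGCCGCttgttccttcct
Gigyf2: agggctagtgacTGCCGCtgtatccaaggt
Gm12070: gtggatctgacgTGCCGCctggagaaacct
Cacng1: gtgggtcaaagcTGCCGCatggctataaaa
AW209491: aaccagtggcttTGCCGCtgcatatctact
Vps13b: agctgacaagctTGCCGCttttttcccttt
Camk2d: agcaacacaagtTGCCGCtctggttgtcag
Cftr: gggaggctgctcTGCCGCgcagcaacatga
Vmn1r124: tgaagatttgtaTGCCGCccatctgtccat
Mef2a: gaagatcaaactTGCCGCaaagaactattt
B230323A14Rik: ttatgggggaagTGCCGCagataaagcatt
2610005L07Rik, first copy: ccttatttgccaTGCCGCatcaaatccact
2610005L07Rik, second copy: ggtcagaggattTGCCGCttggcagttctc

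The peak at Cacng1, the gene of a calcium channel subunit of skeletal muscle, lay at chr11:107576551-107576850, with its hexamer on the minus strand at 107576695-107576700, 3 bp from the middle of the peak. It was 986 bp from the start of the gene and 77550 bp from the nearest KAP1 peak. The peak at Cftr, which encodes a chloride channel, covered coding exon sequence at chr6:18217951-18218250, with the hexamer on the plus strand at 18218184-18218189. That peak lay 98700 bp from KAP1. The peak at Gigyf2 (chr1:89269201-89269950) was intronic, 750 bp wide and 51750 bp from KAP1, and its hexamer at 89269352-89269357 was 221 bp from the middle. The copies at Vps13b (chr15:35675054-35675059), Camk2d (chr3:126443035-126443040) and Mef2a (chr7:74498691-74498696) were also in introns. Camk2d encodes a calcium/calmodulin-dependent kinase and Mef2a a muscle transcription factor. The peak at Vps13b was the nearest of the 12 to a KAP1 peak, at 750 bp. The hexamers near Gm5257 (chr1:75685910-75685915) and AW209491 (chr13:14957427-14957432) were intergenic. The copy at chr9:69636964-69636969 was within an intron of B230323A14Rik, and its peak lay 28154 bp from the start of Foxb1, a forkhead gene.

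At the other 3 of the 12 peaks the sequence occurs in more than a single copy in mm9. At most 15.1% of the 50 bp words of each of these peaks, both strands considered, were found once in mm9. No 50 bp word of the peak at Gm12070 (chr11:26687251-26687550) was found once, and 9.8% were at the peak near Vmn1r124 (chr7:22050751-22051350), a vomeronasal receptor gene. The peak at chr8:19923601-19982250, over 2610005L07Rik and the start of Gm15319, was 58650 bp wide. Its 2 hexamers lay 23717 and 17317 bp from its middle. It was also the only one of the 541 peaks with more than 1 TGCCGC. No BJ1-alone peak had copies with starts less than 38 bp apart, a spacing found in 96 of the 521 peaks in all 4 lists (18.4%).

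The share of 2.22% was set beside all 300 bp windows of the autosomes, in steps of 150 bp and without undetermined bases. Of these 15957160 windows, 1.86% held TGCCGC, a value inside the interval of the BJ1-alone peaks. TGCCGC was found in 447 of the 521 peaks in all 4 lists (85.8%, 82.5 to 88.7%), and in 90 of the 168 peaks with KAP1 but without JB1 ZFP57 (53.6%, 45.7 to 61.3%). The intervals of these groups did not overlap that of the BJ1-alone peaks. The remaining group, JB1 ZFP57 with KAP1 of a single line or of neither, had the hexamer in 1 of 22 peaks (4.55%, 0.115 to 22.8%), and its interval did overlap. Among peaks of the minimal width of 300 bp alone, 9 of 374 BJ1-alone peaks (2.41%) and 74 of 92 peaks in all 4 lists (80.4%, 70.9 to 88.0%) held the hexamer. The variant GGCCGC was in 4 BJ1-alone peaks (0.739%, 0.202 to 1.88%), in 25.5% of the peaks in all 4 lists, and in 1.54% of the windows. The hexamer was about as rare in the JB1 counterpart, where 55 of the 3718 JB1 ZFP57 peaks in no other list held it (1.48%, 1.12 to 1.92%). The search used the B6 sequence, and the JF1 allele of these cells was not searched.

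**Figure D1:**
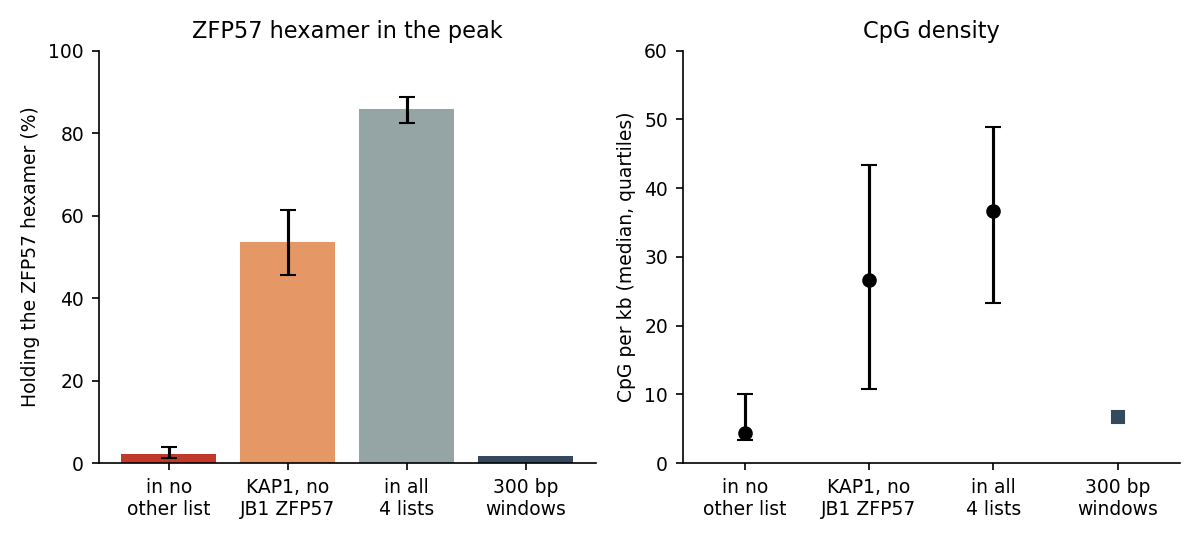
Left, the share of BJ1 ZFP57 peaks that hold the ZFP57 hexamer in percent, by overlap with the other lists, with exact 95% intervals as bars, and the share of all autosomal 300 bp windows. Right, CpG per kb of the same groups, with the median as a point and the quartiles as bars. The BJ1-alone peaks are at 2.22% against 85.8% for peaks in all 4 lists, and at 4.44 against 36.7 CpG per kb.

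CpG sites, which carry the methylation that ZFP57 reads, were also sparse. The median density was 4.44 CpG per kb in the BJ1-alone peaks (quartiles 3.33 and 10.0), 36.7 in the peaks in all 4 lists, 4.72 in the 22 peaks that met JB1 ZFP57 with KAP1 of a single line or of neither, and 6.67 in the 300 bp windows. No CpG at all was found in 104 of the 541 peaks (19.2%, 16.0 to 22.8%) and in 1 of the 521 peaks in all 4 lists. This share depends on width. Among BJ1-alone peaks of 300 bp, 89 of 374 had none (23.8%, 19.6 to 28.4%), an interval above the 18.6% of the 300 bp windows. Among those of at least 450 bp, 15 of 167 had none (8.98%, 5.11 to 14.4%), an interval that holds the 9.63% of the 450 bp windows. The median GC content was 40.0%, compared with 50.0% for the peaks in all 4 lists and 41.7% for the windows. The following pair gives single peaks of 300 bp as examples, each made only of 50 bp words found once in mm9. Each has the GC content nearest to the median of its group. The first was picked without TGCCGC and the second with it, so the pair does not measure the difference. Most BJ1-alone peaks had at least 1 CpG, unlike the first. Both are written on the plus strand of mm9. The BJ1-alone peak at chr1:119305351-119305650 was intergenic, 24750 bp from KAP1, and had no CpG and no hexamer, so no base is in capitals. The peak at chr12:72249301-72249600 covers coding exon sequence of 2700049A03Rik, overlaps all 3 other lists, and has 8 CpG and 2 hexamers, in capitals on both strands.
BJ1-alone: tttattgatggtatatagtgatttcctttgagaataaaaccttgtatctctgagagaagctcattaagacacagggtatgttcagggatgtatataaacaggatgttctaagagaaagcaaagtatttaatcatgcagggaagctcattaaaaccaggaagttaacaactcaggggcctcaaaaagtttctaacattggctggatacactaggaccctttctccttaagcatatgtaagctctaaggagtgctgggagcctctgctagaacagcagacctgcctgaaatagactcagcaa
In all 4 lists: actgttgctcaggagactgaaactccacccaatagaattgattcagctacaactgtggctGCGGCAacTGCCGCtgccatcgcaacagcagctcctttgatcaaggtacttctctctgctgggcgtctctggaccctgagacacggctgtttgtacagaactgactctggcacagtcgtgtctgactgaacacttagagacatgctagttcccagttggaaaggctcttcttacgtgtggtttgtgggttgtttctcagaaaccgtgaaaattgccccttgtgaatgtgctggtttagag

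BJ1-alone peaks were more often in sequence that occurs once in mm9 than the peaks in all 4 lists. At least 50% of the 50 bp words were found once in 493 of 541 (91.1%, 88.4 to 93.4%), against 287 of the 521 peaks in all 4 lists (55.1%, 50.7 to 59.4%). The share over all windows of the autosomes was not computed. Only copies placed in the assembly were counted. The peaks were also compared with each other. With an identity of at least 80% over at least 100 bases, 123 of the 540 peaks under 5000 bp matched another of them. They formed 12 groups of up to 67 peaks, and 417 peaks matched none. At 90% identity 71 matched another. These shares were not computed for windows or for the peaks in all 4 lists. The stretch picked from each of the largest groups, of 67 and 13 peaks, had 87125 and 211628 matches in mm9.

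Of the 12 groups, 2 are described by their sequence. They were picked after their values were seen, for the width of their peaks. The stretch of 120 bases that most members of each group had in common is shown for both. The first group, of 10 peaks, carries sequence of the large-subunit ribosomal RNA gene, the RNA at the core of the ribosome. The second, of 7 peaks, carries the major satellite, the AT-rich tandem repeat next to mouse centromeres. Both were recognised from general knowledge of these repeats and not by a search of a repeat library. The stretches are from the plus strand of mm9 at chr11:33654794-33654913, in an intron of Kcnip1, and at chr9:35112801-35112920, near Gm5614, and no base is in capitals.
Ribosomal type: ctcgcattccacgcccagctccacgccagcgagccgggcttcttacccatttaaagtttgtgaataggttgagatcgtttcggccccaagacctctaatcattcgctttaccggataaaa
Satellite type: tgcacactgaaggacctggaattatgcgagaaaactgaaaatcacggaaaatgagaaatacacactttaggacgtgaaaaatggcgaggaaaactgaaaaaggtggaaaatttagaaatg

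The ribosomal stretch was found at 23 places on the autosomes of mm9, with at least 80% identity over at least 60 bases, and 10 of these 23 places shared a base with a BJ1-alone peak. These 10 could meet no other list by the rule. Of the other 13 places, none shared a base with any of the 68471 autosomal KAP1 peaks of BJ1, the 36174 of JB1 or the 9831 ZFP57 peaks of JB1. Of all autosomal 150 bp windows, 2.26%, 1.36% and 0.221% shared a base with these lists, so few meetings would be seen at 13 places of any kind. All 10 peaks of the group were at least 450 bp wide, with a median of 525 bp, the trait they were picked for. They included the peaks at chr16:57391051-57391950 in an intron of 2610528E23Rik, which was 900 bp wide, chr14:105114751-105115500, chr8:15519601-15520350, and chr6:44742751-44743500 near Cntnap2, a gene of neuronal cell adhesion, all 3 of 750 bp. Another, of 450 bp, overlapped Spata5 at chr3:37380301-37380750. Their gaps to the nearest KAP1 peak ran from 1350 to 74850 bp.

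The satellite stretch was found at 21 places on the autosomes, and 7 of these lay in a BJ1-alone peak. Of the 14 places outside these peaks, KAP1 peaks of BJ1 met 1, KAP1 peaks of JB1 met 3, and ZFP57 peaks of JB1 met none. The shares of windows given above are the background here too, though a place can hold several copies and be longer than a window. All 7 peaks were 600 or 750 bp wide. They included the peak in coding exon sequence of Gm10801 (chr2:98503651-98504400), the intronic peak in Ank1 (chr8:24205801-24206550), whose gene encodes an ankyrin of the red cell membrane, and a peak at chr12:3109651-3110400. At a stricter identity of 90%, 3 of the 541 peaks met the satellite stretch and 8 the ribosomal stretch. The median share of 50 bp words found once in mm9 was 69.4% in the ribosomal group and 90.2% in the satellite group. Over all BJ1-alone peaks it was 100%. A word found once in the assembly can have more copies in the genome of the cells, which were not counted. The part of repeated sequence in these calls was not tested.

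The distance of BJ1-alone peaks from KAP1 of either line was close to that of the autosomal windows. The gap from a BJ1-alone peak to the nearest KAP1 peak of either line had a median of 14700 bp, with quartiles of 6000 and 32100 bp. For all 15564381 autosomal windows of 150 bp that lay outside KAP1 peaks, the median was 15300 bp, with quartiles of 5850 and 33300 bp. A KAP1 peak was within 10 kb of 210 BJ1-alone peaks (38.8%, 34.7 to 43.1%) and of 37.4% of the windows. Within 1 kb the values were 26 peaks (4.81%, 3.16 to 6.96%) and 5.43%, and within 100 kb 527 peaks (97.4%) and 97.1%. The shares of the windows were inside the intervals of the peaks at all 3 limits, with 95.7 to 98.6% for the last.

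**Figure D2:**
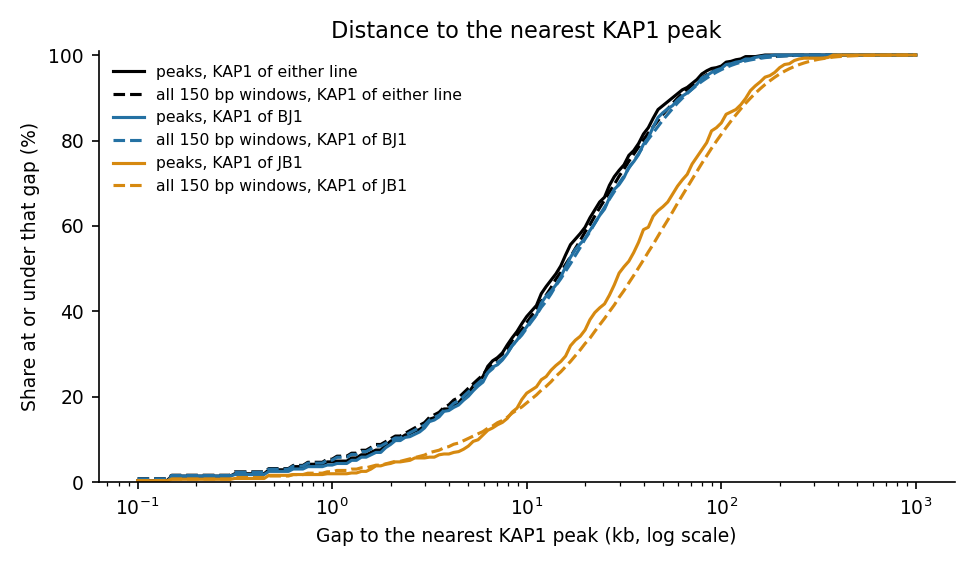
The share of BJ1-alone peaks (solid) and of all autosomal 150 bp windows outside the KAP1 peaks concerned (dashed) at or under each gap to the nearest KAP1 peak, in percent, against the gap in kb on a log scale, for KAP1 of either line, of BJ1 and of JB1. The solid and dashed lines run close together for either line, with medians of 14700 and 15300 bp, and for BJ1, with 15600 and 16050 bp. For JB1 the solid line lies above the dashed line around its middle, with medians of 31200 and 37350 bp.

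The nearest KAP1 peak was one of BJ1 for 361 peaks and one of JB1 for 80, and was equally far in both for 100. To BJ1 KAP1 alone the median gap was 15600 bp, and 16050 bp for the windows. To JB1 KAP1 alone it was 31200 bp, and 37350 bp for the windows. At 39.8 kb, where these distributions were farthest apart, 59.1% of the peaks (54.9 to 63.3%) and 52.0% of the windows had a JB1 KAP1 peak at or under that gap. This gap was picked for its difference, so its interval cannot show a departure from the windows. Within 10 kb of JB1 KAP1 were 20.9% of the peaks (17.5 to 24.6%) and 18.6% of the windows, a value inside that interval. The JB1 list is shorter, with 38713 KAP1 peaks against 72535 in BJ1. The median gap to the nearest JB1 ZFP57 peak was 93450 bp, and 115950 bp for the windows outside these peaks. Within 10 kb were 36 peaks (6.65%, 4.70 to 9.09%) and 6.60% of the windows, and within 1 kb 1 peak (0.185%, 0.00468 to 1.03%) and 0.807% of the windows.

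Just inside the rule, a pair of BJ1-alone peaks touched a JB1 KAP1 peak without sharing a base, at chr1:102635251-102635700 and at chr3:93868201-93868500 near Gm10697. The next 6 had a gap of 150 bp, the width of 1 grid window. They lay at chr1:92376001-92376450, chr2:122737051-122737350, chr4:93448051-93448350, chr5:16245301-16245600, chr12:69528901-69529200 and chr17:7146001-7146600, the last in coding exon sequence of Rsph3b, which encodes a radial spoke protein of cilia. Just outside the rule, the smallest overlaps were 150 bp, at 4 peaks, and the next were 300 bp, tied at 163 peaks. Of the 4, 2 shared 150 bp with BJ1 KAP1 alone and 2 with JB1 KAP1 alone, among them the peak near Anapc13 at chr9:102564151-102564450.

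The farthest BJ1-alone peak from KAP1 was in an intron of Odz3, a teneurin gene, at chr8:49540501-49540800, with a gap of 162300 bp. The peak near Fam5b (chr1:159967651-159967950) followed at 153300 bp. The satellite-type peak near Gm5614 (chr9:35112601-35113350) was 127650 bp from KAP1. The peak 13974 bp from Acsbg1 (chr9:54523651-54523950), an acyl-CoA synthetase gene, had a gap of 126600 bp. The peak in an intron of Ptprd (chr4:77361451-77361900), a receptor phosphatase gene, had a gap of 126300 bp. All 5 lacked TGCCGC.

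BJ1-alone peaks were narrow. Peak edges lie on a grid of 150 bp, the setting behind which is not given in the sources used here, and the narrowest peak in any list is 300 bp. This minimum was the width of 374 of the 541 peaks (69.1%, 65.0 to 73.0%), while 111 peaks were 450 bp wide, 40 were 600 bp and 16 were 750 bp or wider. Of the peaks in all 4 lists, 17.7% had the minimal width (14.5 to 21.2%), and their median was 600 bp. A wide peak meets another list more easily, so width is not independent of the rule. The JB1 ZFP57 peaks in no other list had a median of 300 bp too, with 56.2% at the minimum (54.5 to 57.8%). The 58650 bp peak on chromosome 8 was far wider than the next, of 1200 bp (chr7:39228301-39229500). A peak of 1050 bp near Vmn2r117 (chr17:23571751-23572800) and one of 900 bp in an intron of Sprr2a2 (chr3:92034451-92035350), a gene of the epidermal barrier, came after it. In the Sprr2a2 peak 4.6% of the 50 bp words were found once. A further 11 peaks tied at 750 bp, among them those at chr13:62626951-62627700 near Gm7664 and chr17:36621451-36622200 near Gm20452.

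**Figure D3:**
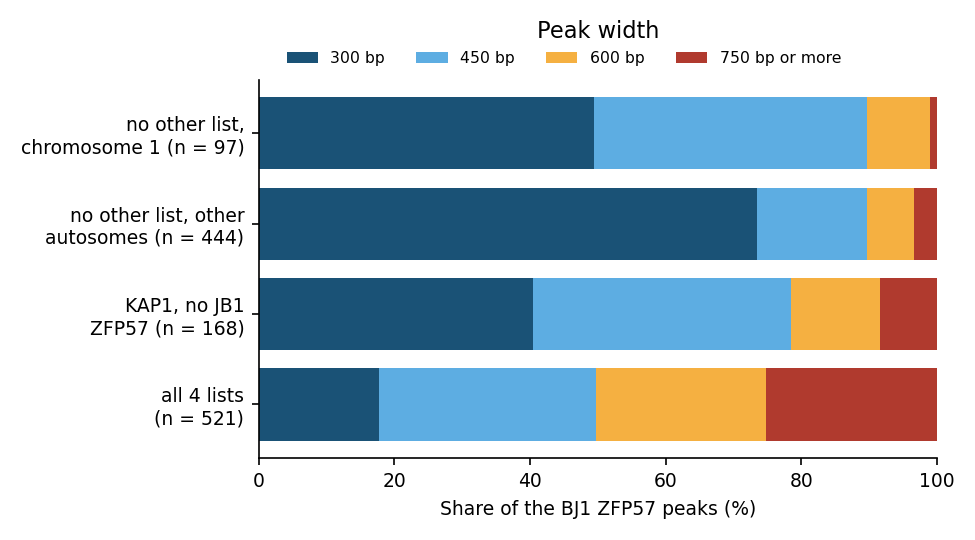
Width of BJ1 ZFP57 peaks in classes of 300, 450, 600 and at least 750 bp, as the share of the peaks of each group in percent. Peaks of 300 bp make up 49.5% of the BJ1-alone peaks of chromosome 1, 73.4% of those of the other autosomes and 17.7% of the peaks in all 4 lists.

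Chromosome 1 held 97 of the 541 BJ1-alone peaks (17.9%, 14.8 to 21.4%) and 8.00% of the sequenced autosomal bases. It had 0.507 BJ1-alone peaks per Mb, 2.51 times the 0.202 per Mb of the other autosomes together. For the BJ1 ZFP57 peaks that met another list the ratio was 1.16, and for KAP1 peaks it was 1.04 in BJ1 and 1.07 in JB1. For the JB1 ZFP57 peaks in no other list it was 1.67, or 1.81 without chromosome 14, where these were densest (3.42 per Mb, against 2.46 on chromosome 1). Of the 162 BJ1 ZFP57 peaks of chromosome 1, 59.9% were BJ1-alone (51.9 to 67.5%), compared with 40.7% of those of the other autosomes. Chromosome 3 had a similar share, with 42 of 66 peaks (63.6%, 50.9 to 75.1%), but 0.269 BJ1-alone peaks per Mb. Chromosome 12 had the lowest density, 0.128 per Mb, with 15 of its 64 ZFP57 peaks (23.4%, 13.8 to 35.7%).

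**Figure D4:**
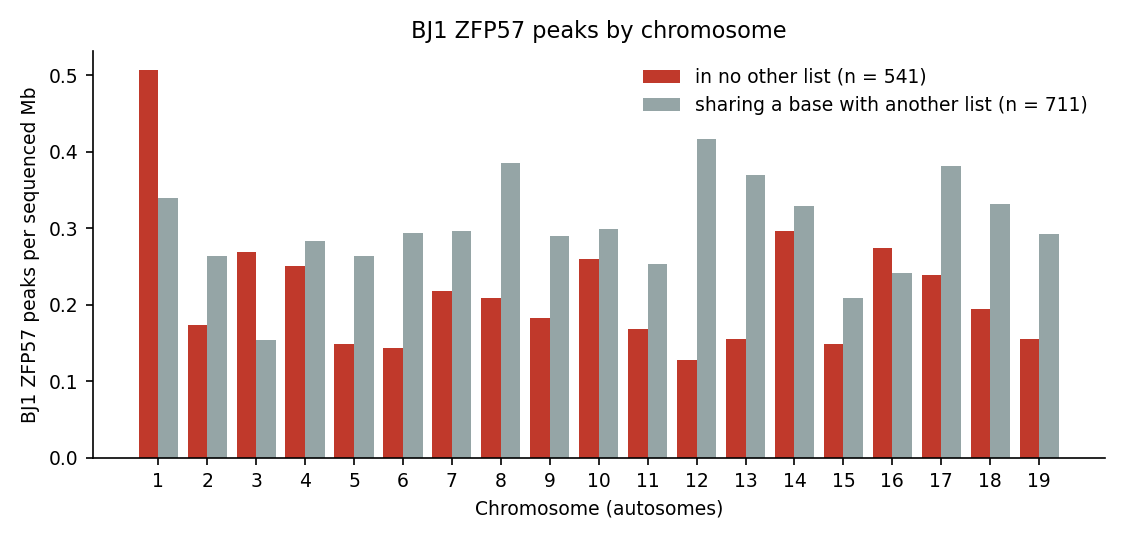
BJ1 ZFP57 peaks per sequenced Mb on each autosome, for the BJ1-alone peaks and for those that share a base with another list. The BJ1-alone peaks are at 0.507 per Mb on chromosome 1 and between 0.128 and 0.296 per Mb on the other autosomes.

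The peaks of chromosome 1 were spread along it. In 4 equal stretches along it they numbered 16, 24, 34 and 23, from position 7783801 to 195534900. Their width and the share found once in mm9 lay outside the intervals of the other BJ1-alone peaks. They were 450 bp or wider in 49 of 97 (50.5%, 40.2 to 60.8%), against 118 of 444 (26.6%, 22.5 to 30.9%). All 50 bp words were found once in 85.6% of them (77.0 to 91.9%), against 63.1% (58.4 to 67.6%). Their median distance from the nearest gene start was 79498 bp, against 36655 bp, and for all 300 bp windows it was 49024 bp on chromosome 1 and 35860 bp on the other autosomes. None of the 97 was within 1 kb of a gene start (up to 3.73%), against 15 of 444 (3.38%, 1.90 to 5.51%), and these intervals overlap. Within 1 kb of a gene start were 2.16% of the windows of chromosome 1 and 3.13% of those of the other autosomes. They held TGCCGC as seldom, in 2 of 97 (2.06%), as the peaks of the other autosomes, in 10 of 444 (2.25%). Within 10 kb of KAP1 were 27 of 97 (27.8%, 19.2 to 37.9%), against 183 of 444 (41.2%, 36.6 to 46.0%), and these intervals overlap too. Among BJ1-alone peaks of at least 450 bp, chromosome 1 held 29.3% (22.6 to 36.9%).

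BJ1-alone peaks were mostly scattered singly, as were the peaks in all 4 lists. The median gap to the nearest other peak of the same group was 1301100 bp for BJ1-alone peaks and 1201050 bp for the peaks in all 4 lists. Of the BJ1-alone peaks, 6 of 541 (1.11%, 0.408 to 2.40%) lay within 10 kb of another, in 3 pairs. Of the peaks in all 4 lists, 35 of 521 did so (6.72%, 4.72 to 9.22%). One pair lay 1800 bp apart over Vmn2r114 (chr17:23428351-23428650 and chr17:23430451-23430900). Another lay 7800 bp apart in introns of Ryr3, a ryanodine receptor gene (chr2:112860151-112860450 and chr2:112868251-112868550). The last lay 8550 bp apart in gene-poor sequence with Gm11161 as the nearest gene, at 141180 bp (chr1:27427951-27428550 and chr1:27437101-27437400). None of these 6 peaks held TGCCGC. Within 50 kb of another were 32 BJ1-alone peaks (5.91%, 4.08 to 8.25%), in 15 runs of at most 3. For the peaks in all 4 lists the number was 50 of 521 (9.60%, 7.21 to 12.5%), and these intervals overlap.

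Most BJ1-alone peaks lay outside genes. By the GENCODE M1 annotation, 334 were intergenic (61.7%, 57.5 to 65.9%), 164 intronic (30.3%, 26.5 to 34.4%), 20 in coding exons (3.70%, 2.27 to 5.65%), 15 within 1 kb of a gene start (2.77%, 1.56 to 4.53%), 6 in untranslated exon parts and 2 in other exons. For all autosomal 300 bp windows the shares were 56.8% intergenic, 35.3% intronic, 3.20% coding exon and 3.05% gene start. For the planned windows of 150 bp, 56.9% were intergenic and 36.3% intronic. The windows' intergenic and intronic shares lay just outside the intervals of the BJ1-alone peaks, and their shares of coding exon and gene start inside. For the 167 BJ1-alone peaks of at least 450 bp, 55.7% were intergenic (47.8 to 63.4%) and 32.9% intronic (25.9 to 40.6%), against 56.6% and 34.3% of 450 bp windows, so the difference did not hold there. In the peaks in all 4 lists, coding exons (10.9%, 8.39 to 13.9%) and gene starts (6.14%, 4.24 to 8.56%) had larger shares, and the interval for gene starts overlapped that of the BJ1-alone peaks. Among peaks of 300 bp both intervals overlapped, with coding exons at 10.9% (5.34 to 19.1%) against 4.01% (2.26 to 6.53%) and gene starts at 4.35% (1.20 to 10.8%) against 1.34% (0.435 to 3.09%). The nearest gene start was over 100 kb away for 169 BJ1-alone peaks (31.2%, 27.4 to 35.3%) and for 77 of the 521 peaks in all 4 lists (14.8%, 11.8 to 18.1%), and for 25.9% of the 300 bp windows. Without chromosome 1 the share of BJ1-alone peaks was 28.6% (24.4 to 33.1%), an interval that holds the 25.4% of the windows there. On chromosome 1 it was 42 of 97 (43.3%, 33.3 to 53.7%), an interval above the 32.0% of the windows of that chromosome.

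**Figure D5:**
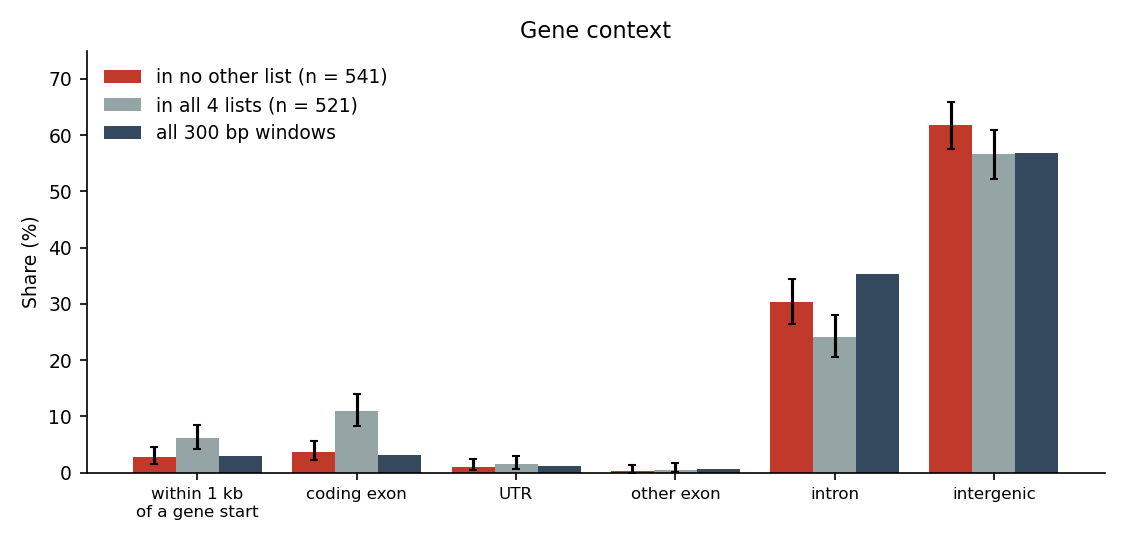
Share of BJ1-alone peaks, of BJ1 ZFP57 peaks in all 4 lists and of all autosomal 300 bp windows in each gene context in percent, with exact 95% intervals as bars on the peak groups. Coding exons hold 3.70% of the BJ1-alone peaks, 10.9% of the peaks in all 4 lists and 3.20% of the windows.

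At gene starts, the peak at Myod1, the gene of the myogenic transcription factor MyoD, stood 57 bp from the start of the gene (chr7:53631901-53632650). It was 750 bp wide, had a GC content of 63.9% and 81.3 CpG per kb, held 1 GGCCGC but no TGCCGC, and was 20100 bp from KAP1. The peak at chr7:137977801-137978250 overlapped both Fgfr2, which encodes a fibroblast growth factor receptor, and the start of AC115697.1. Peaks of 450 bp also lay 100 bp from the start of Myo1h, a myosin gene (chr5:114764401-114764850), and 774 bp from the olfactory receptor gene Olfr1126 (chr2:87296101-87296550). A 600 bp peak lay 414 bp from the start of Vmn2r117 (chr17:23615551-23616150). Another 450 bp peak was 958 bp from a U1 small nuclear RNA gene (chr3:45620251-45620700). The peaks at the starts of AC165092.1 (chr14:20110501-20110950), AC140318.1 (chr9:3258601-3259050) and Gm12563, within Spata5, belong to the ribosomal group above.

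In coding exons, 450 bp peaks covered Zfp58, a zinc-finger gene (chr13:67594651-67595100), Lamp3, a lysosomal membrane protein gene (chr16:19673401-19673850), and Riok2, a kinase gene of ribosome maturation (chr17:17515201-17515650). The Riok2 peak had a JB1 KAP1 peak 600 bp away, while the nearest BJ1 KAP1 peak was at 34200 bp.

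Imprinted genes, at which ZFP57 acts, were near BJ1-alone peaks about as often as near windows. Of the 63 imprinted genes of the list found in the annotation, 1 or more lay within 100 kb of 2 BJ1-alone peaks (0.370%, 0.0448 to 1.33%) and of 20 of the 521 peaks in all 4 lists (3.84%, 2.36 to 5.87%). The share was 0.438% of the 300 bp windows, inside the interval of the BJ1-alone peaks and below that of the peaks in all 4 lists. One of the 2 was 16272 bp from Ube3a, a ubiquitin ligase gene imprinted in neurons (chr7:66467551-66467850), with KAP1 at 1200 bp. The other was 30359 bp from Herc3 (chr6:58750801-58751100). Neither held TGCCGC. A germline gene silenced by methylation was within 100 kb of 1 BJ1-alone peak (0.185%, 0.00468 to 1.03%), of 2 of the 521 and of 0.158% of the windows. This was Ddx4, the gene of the germ cell RNA helicase also known as Vasa, with an intronic peak of 300 bp (chr13:113427301-113427600), 77850 bp from KAP1. No BJ1-alone peak was within 100 kb of a listed pluripotency factor, repressor or DNA methylation factor, or 2-cell stage gene, a count of 0 of 541 that allows up to 0.680%. In the peaks in all 4 lists these counts were 0, 1 and 1, and the shares of the windows were 0.172%, 0.216% and 0.0604%, all under that limit.

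By gene family, the nearest gene was a vomeronasal receptor (Vmn) for 14 BJ1-alone peaks (2.59%, 1.42 to 4.30%) and for 1 of the 521 peaks in all 4 lists (0.192%, 0.00486 to 1.06%). It was nearest for 0.789% of the 300 bp windows, which is below the interval of the BJ1-alone peaks and inside that of the peaks in all 4 lists. Of the 14, 7 were on chromosome 7, 6 on chromosome 17 and 1 on chromosome 3. They included pairs of peaks within 50 kb of each other at Vmn2r114, Vmn2r117, Vmn1r124 and Vmn2r69. The interval takes the 14 as independent, which such pairs may not be. These receptor genes detect pheromones and sit in tandem arrays of similar copies. An olfactory receptor (Olfr) was nearest for 12 peaks (2.22%, 1.15 to 3.84%), against 8 of the 521 (1.54%, 0.665 to 3.00%) and 1.10% of the windows, which is just below the interval of the BJ1-alone peaks. Zinc-finger (Zfp) genes were nearest for 4 (0.739%, 0.202 to 1.88%), for 10 of the 521 and for 0.894% of the windows. A protocadherin (Pcdh) gene was nearest for 3 (0.555%, 0.115 to 1.61%), all on chromosome 14, for 1 of the 521 and for 0.317% of the windows. No histone or Hox gene was the nearest gene of a peak in either group, and these were nearest for 0.0226% and 0.0197% of the windows.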

How the data were processed

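ZFP57 and KAP1 were measured by ChIP-seq in JB1 and BJ1 ESCs, with 1 library per line and antibody, and samples were grouped by their titles. The authors sequenced 50 bp single-end reads, trimmed them and aligned them to mm9 with Bowtie. The study's methods name MACS as the peak caller, and the settings that placed all edges on a 150 bp grid are not given in the sources used here. Their processing notes list CASAVA 1.8.2, Bowtie 0.12.7, SAMtools 0.1.18 and bedtools 2.14.3-1. The deposited lists, 1 per library, give chromosome, start and end alone, counted from 1, with no score, fold or read count, so read depth is unknown. The input libraries were not analysed here.

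The BJ1-alone peaks are autosomal BJ1 ZFP57 peaks that share no base with a peak of the other 3 lists. They and the gene lists were chosen with earlier results of these data known. No test was made, since there are no replicate libraries and peaks are not replicates. Shares have exact Clopper-Pearson 95% intervals. Gaps count the bases between peaks. Sequence is from the NCBIM37 (mm9) assembly and genes are from GENCODE M1, with classes assigned in the order gene start (within 1 kb), coding exon, UTR, other exon, intron, intergenic. TGCCGC and GGCCGC are different hexamers, searched as exact matches on both strands inside the peak. Copies of 50 bp words were counted on both strands of mm9. Peaks under 5000 bp were compared with blastn 2.17.0 (E-value up to 1e-10, no masking, at least 80% identity over 100 bases). Python 3.11.15 was used with numpy 2.4.6, pandas 2.3.3, scipy 1.17.1, pysam 0.24.0, networkx 3.6.1 and matplotlib 3.10.9. The overlap, gap, motif, run and interval functions were tested on simulated data.

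Peaks were named by a rule: the 10 widest (ties at 750 bp taken by position), those with most TGCCGC (ties kept, so 12), the 5 nearest to (ties kept, so 8) and 5 farthest from KAP1, runs within 10 kb, the 15 widest at gene starts or in coding exons, and those within 100 kb of a listed gene. Other named peaks, such as Cntnap2 and Ank1, were chosen after their values were seen. Alternatives changed the overlap rule, the lists, the minimal width, the chromosomes, the runs, the gene classes and the motif search.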

Additional observations from a re-analysis of the deposited data

Results flagged for a closer look

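The sex chromosomes lie outside the rule, and were looked at because the same signal appears there. Of the 66 BJ1 ZFP57 peaks on chromosomes X and Y, 12 shared no base with a peak of the other 3 lists (18.2%, 9.76 to 29.6%), 9 of them on X and 3 on Y. They were 300 to 3450 bp wide, and none held TGCCGC. The share was lower than the 43.2% of the autosomes (40.4 to 46.0%), and the difference was not tested. The paper states that both lines were male, so the sex chromosomes and the autosomes are not compared like for like.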

How the results depend on the processing

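The number of BJ1-alone peaks was 167 with BJ1 ZFP57 peaks of at least 450 bp, and within 1.5 times of 541 under the other alternatives run for this number (493 to 607). Chromosome 1 left out, 444 remain. With the minimal width of 450 bp, the median gap to KAP1 was 16350 bp, the median width 450 bp, the intergenic share 55.7% and the share on chromosome 1 29.3%, and 0 peaks were in runs within 10 kb or within 100 kb of an imprinted gene, as fewer peaks remained. To JB1 KAP1 alone the median gap was 31200 bp. Peaks in runs numbered 32 at 50 kb, 0 at 1 kb and, by construction, 0 with 1 peak per run. The share with TGCCGC was 1.80 to 2.96% under the alternatives run for it, and 5.36% (3 of 56, 1.12 to 14.9%) in peaks of at least 600 bp. The median GC content was 39.8 to 40.0% under the alternatives run for it. At 90% identity, 71 peaks matched another peak, and 3 met the satellite stretch. These comparisons of sequence, the sets without chromosome 1 or of peaks found once, and the alternatives for chromosome spread and gene lists were chosen after seeing the data. The alternative on soft-masked bases was not run, since the assembly used has none. No paired analysis was possible because each line and antibody has 1 library and the labels give no shared replicate numbers. Without heights or depth, it is unknown how far a place without a peak fell short of the threshold of a list.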
